A study of Rattus norvegicus with 7 samples.

Results

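The interval between 3 and 6 h of exposure to sodium fluoride (NaF) was described in rat oral epithelial ROE2 cells by a difference of differences. For each probe set, the log2 signal of NaF at 3 h was subtracted from that of NaF at 6 h, and the same subtraction on the vehicle arrays was then taken away. This value is called the shift, and a shift of 1 is a 2-fold change of NaF over vehicle within the interval. A probe set was included when it carried 1 gene symbol and reached a log2 signal of 7 on any of the 4 arrays. This held for 9524 of 31099 probe sets, which stood for 7690 of 14217 named genes.

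ROE2 is a single immortalized line from the tongue of fetal Wistar rats transgenic for a temperature-sensitive SV40 large T-antigen, so all groups carry that gene. The cells were given 2 mM NaF or the same volume of sterilized water as vehicle, for 3 or 6 h. Pooled RNA of 3 independent experiments was hybridized to 1 Affymetrix Rat Genome 230 2.0 array per condition, so no condition has a replicate array. The remaining arrays of the series, vehicle and NaF at 12 h and a vehicle control labelled with no incubation time, served as a follow-up and to estimate the spread.

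Fluoride at high concentrations stresses the endoplasmic reticulum (ER), where secreted and membrane proteins are folded. The stress kinase PERK then slows translation and favours ATF4, a transcription factor that acts on Ddit3 (CHOP), Ppp1r15a and Trib3. Separately, immediate early genes such as Fos and Egr1 are switched on by kinase signalling without new protein, and their transcripts are short-lived, as are those of Myc and many cytokines.

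The largest positive shifts were those of the chemokine gene Cxcl2, the nuclear receptor gene Nr4a3, the bradykinin receptor gene Bdkrb2 and Myc, and the largest negative shifts those of Asb12, Pde7a and B3galnt1. A shift of 2-fold or more was positive in 85 probe sets, 0.892% of those examined, and negative in 55, 0.577%. Per gene, read at its brightest probe set, these were 67 positive and 43 negative shifts. With all 4 vehicle arrays averaged into 1 baseline, so that no vehicle change is subtracted, 47 probe sets had a positive and 54 a negative 2-fold shift, and positive ones were no longer the more frequent. Of the 67 genes, 22 reached the signal limit on the NaF 6 h array only, as did 94 of all 7690, and were examined because they were high there. The median shift of all genes was 0.034, and the lower and upper ends of the bulk of probe sets, with 5% beyond each, were -0.489 and 0.523. Other probe sets of the same genes that also reached the signal limit had the same sign in 9 of 9 cases for positive shifts and in 12 of 12 for negative ones, but 8 of the 9 and only 4 of the 12 were 2-fold themselves. Dimmer probe sets of these genes, below the limit on all 4 arrays, had the same sign in 16 of 19 cases for positive shifts and in 16 of 24 for negative ones, and reached 2-fold in 1 and 2 cases.

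No shift passed the test. limma, which had to take its spread from the vehicle arrays with 2 residual degrees of freedom, called 0 probe sets, with a lowest adjusted p of 0.18; 670 positive and 608 negative shifts had an unadjusted p under 0.05. A limma fit of NaF 6 h minus NaF 3 h alone, without subtracting the vehicle change, called 229 named probe sets higher at 6 h, which is 2.4% of them, and 370 lower, which is 3.88%. These calls depended on the vehicle arrays that set the spread: limma called 101 higher and 187 lower without the vehicle control array, 202 and 284 without vehicle 3 h, and 0 without vehicle 6 h or vehicle 12 h, where the lowest adjusted p was 0.097 and 0.067 and where 880 and 1025 probe sets were higher and 1090 and 1242 lower at an unadjusted p under 0.05. The adjusted p of this fit with all 4 vehicle arrays is given for single genes as the p of the NaF arrays alone, and no such call held without vehicle 6 h or 12 h. It draws on the same NaF arrays as the shift and is no independent test of it. Both fits assume that a lone NaF array varies like a vehicle array, and their p-values measure the spread between vehicle arrays of pooled RNA, not between cultures. The vehicle arrays differ in incubation time, so this spread and the SE also hold change of the vehicle signal with time. In Csf2, for example, the vehicle control, 3, 6 and 12 h arrays stood at 8.32, 8.47, 7.54 and 7.05. How far this widened the SE was not tested.

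The vehicle arrays also differed between 3 and 6 h. The SD over probe sets was 0.155 for the vehicle change and 0.308 for the NaF change. Among the 67 genes with a positive 2-fold shift, the NaF signal was higher at 6 h by a median of 0.953 while the median difference of the vehicle signal was -0.297, with 13 genes lower by 0.5 or more in vehicle. Among the 43 negative ones the medians were -1.1 with NaF and 0.064 in vehicle. The 3′ minus 5′ difference of the beta-actin control probe sets, a sign of RNA or labelling quality, was 2.83 on the vehicle 3 h array, 1.53 on vehicle 6 h, 2.39 on NaF 3 h and 1.77 on NaF 6 h. Its part in the shifts was not tested.

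Genes were then sorted by their change at each time, taken as NaF minus vehicle of the same time, with 1 or more in size counted as changed and less than 0.5 as near vehicle. From 3 to 6 and 12 h the number of genes changed upward went from 41 to 158 and 351, and downward from 67 to 228 and 407. The interval thus held starts (near vehicle at 3 h, changed at 6 h) in 58 genes upward and 86 downward, which were 22 and 24 with near vehicle set at less than 0.25, most of the rest then counting as growth. Growth (0.5 or more at 3 h and larger by 0.5 or more at 6 h) was seen in 66 upward and 72 downward. A further 13 genes upward and 29 downward held their change. Easing toward vehicle was seen in 4 genes that had been high and 11 that had been low, and full recovery in 10 genes that had been low and in 0 that had been high. No gene changed by 1 at 3 h stood 0.5 or more on the other side at 6 h.

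**Figure D1:**
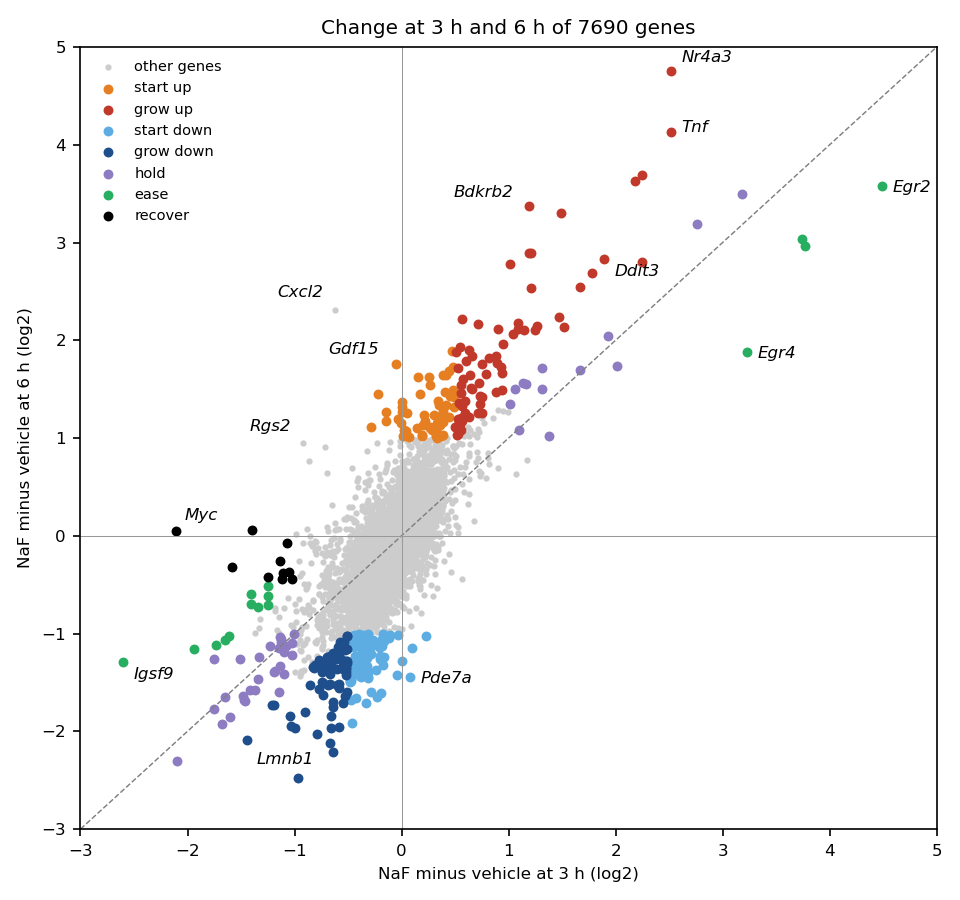
Change at 3 h (x axis) against change at 6 h (y axis), each as NaF minus vehicle on the log2 scale, for 7690 genes, 1 point per gene with no replicate error; the dashed line marks equal change. The 58 genes that started upward and the 86 that started downward lie above and below the middle of the cloud, and the 10 recovered genes, Myc among them, lie at the left near zero on the y axis.

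Genes that started upward were led by Gdf15, Il23a, Il1a, Csf2 and Ttc39b. Gdf15, a secreted stress cytokine, had a log2 signal of 5.82 in vehicle 3 h, 5.65 in vehicle 6 h, 5.77 with NaF at 3 h and 7.41 at 6 h. The NaF array at 3 h lay within the vehicle arrays and the one at 6 h well above them, a shift of 1.81 (SE 0.26). Gdf15 reached the signal limit on the NaF 6 h array only, so it was included because it was high there. Il23a, a subunit of interleukin 23, was at 7.10 in both vehicle arrays, at 6.88 with NaF at 3 h and at 8.56 at 6 h, a shift of 1.68 (SE 0.35). It was at 11.42 at 12 h, so most of its 12 h change of 4.72 came after the interval. Ereg, a ligand of the EGF receptor, stood at 7.43, 7.21, 7.43 and 8.59 in the same order, a shift of 1.37 (SE 0.14).

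For Il1a and Csf2 the vehicle arrays contributed more than the NaF arrays. Il1a, the interleukin 1 alpha gene, was at 11.46 and 10.63 in vehicle at 3 and 6 h and at 11.61 and 12.25 with NaF. Csf2, which encodes the growth factor GM-CSF, was at 8.47 and 7.54 in vehicle and at 8.32 and 8.80 with NaF. Their shifts of 1.47 (SE 0.67) and 1.41 (SE 0.85) thus rested on a vehicle signal that was lower at 6 h, with differences of -0.83 and -0.93. Neither passed limma for the NaF arrays alone, with adjusted p of 0.51 and 0.69. Mxd1, which encodes a partner of Max that opposes Myc, went from a change of 0.00 at 3 h to 1.31 at 6 h and 1.10 at 12 h. Of the 58 genes that started upward, 15 reached the signal limit on the NaF 6 h array only and were examined because they were high there. Over the 58 genes the median change went from 0.31 to 1.21 and, at 12 h, to 1.44. Of these, 45 were 2-fold or more above vehicle at 12 h, where 4.56% of all genes were. Against the mean of the 4 vehicle arrays as baseline, 38 genes started upward rather than 58, and 36 to 38 when the vehicle control or the vehicle 6 h array was left out of that mean.

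Genes whose change grew upward were led by Nr4a3, Bdkrb2, Itsn1, Tslp and Hist4h4, whose probes other histone genes may share. Of the 66 genes, 15 reached the signal limit on the NaF 6 h array only and were examined because they were high there. Bdkrb2, Itsn1, Tslp and Hist4h4 were among these. Nr4a3, an orphan nuclear receptor of the immediate early class, was at 4.57 and 3.77 in vehicle and at 7.09 and 8.53 with NaF, the largest shift of its class at 2.24 (SE 0.19). Bdkrb2, the bradykinin B2 receptor, was at 5.56 and 4.94 in vehicle and at 6.75 and 8.32 with NaF, a shift of 2.19 (SE 0.14). Both NaF arrays lay above all vehicle arrays in both genes. Bdkrb2 was at 7.41 at 12 h and was among the 13 genes with an upward peak at 6 h, meaning that the change at 6 h exceeded those at 3 and 12 h by 0.5 or more. Itsn1, which encodes an endocytic scaffold protein, had 2 further probe sets below the signal limit that showed no such change, with shifts of 0.25 and -0.05 beside 1.81 for the named one. Below the limit, Bdkrb2 had shifts of 1.36 and -0.17, Csf2 of 0.17 and Ttc39b of 0.37. Nr4a3 had 0.13 below the limit and 2.00 at another probe set that reached it.

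Tnf, an inflammatory cytokine, had changes of 2.52, 4.13 and 3.05 at the 3 times and also peaked at 6 h. Its vehicle signal was 6.47 and 5.55, so its shift of 1.61 (SE 0.59) held a vehicle difference of about the size of the NaF one, 8.99 and 9.69. A dimmer probe set of Tnf, below the signal limit, had a shift of 0.71 and a vehicle signal that was not lower at 6 h, 5.11 and 5.34. The other leading peaks were Abcb4, a phospholipid transporter with changes of 0.57, 2.22 and 1.58, Zfp213 with 0.90, 2.12 and 1.41, and the uncharacterized LOC102549836 with 2.18, 3.63 and 3.04. Abcb4, Zfp213 and LOC102549836 reached the signal limit on the NaF 6 h array only. Other probe sets of Zfp213, below the limit, had shifts of 0.10 to 0.41. Only 3 of the 13 were back near vehicle at 12 h. By contrast Il6 and Tslp, both cytokine genes, kept growing. Il6 was at 4.30 and 4.15 in vehicle and at 5.51, 7.04 and 9.61 with NaF at 3, 6 and 12 h. Tslp was at 5.07 and 5.27 in vehicle and at 6.27, 8.17 and 9.35 with NaF. Over the 66 growing genes, 61 were 2-fold or more above vehicle at 12 h.

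Genes of the ATF4 and CHOP branch of the ER stress response had positive shifts in the same interval. Ddit3 (CHOP), a factor tied to stress-induced cell death, was at 9.14 and 9.16 in vehicle and at 11.03 and 11.99 with NaF, a shift of 0.94 (SE 0.15; p of the NaF arrays alone 0.02, limma, adjusted). Ppp1r15a, which restores translation by recruiting a phosphatase to eIF2 alpha, went from a change of 1.67 to 2.55. Trib3, a pseudokinase that restrains ATF4, went from 1.27 to 2.14, and Chac1, a glutathione-degrading enzyme, from 0.73 to 1.43. Atf4 itself went from 0.58 to 1.02, and Cebpb, a partner of CHOP, from 0.05 to 0.97. Sqstm1, an autophagy receptor, went from 0.30 to 0.66. Of 26 genes of stress bZIP factors and ATF4 or CHOP targets, 23 had a positive shift and 10 a shift of 0.5 or more, against 56.5% and 5.31% of all genes. The 1 member at 2-fold, Gdf15, is among them. It reached the signal limit on the NaF 6 h array only, so it does not count for the list.

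ER chaperones had small shifts and larger changes at 12 h. Hspa5 (BiP), the main chaperone of the ER, was at 12.08 and 12.28 in vehicle and at 12.06 and 12.52 with NaF, a change of -0.02 at 3 h and 0.24 at 6 h, and then of 1.85 at 12 h. Of 28 ER chaperones, disulfide enzymes and genes of ER-associated degradation, 24 had a positive shift and 1 a shift of 0.5 or more, against 56.5% and 5.31% of all genes. Their median change was -0.04 at 3 h, 0.08 at 6 h and 0.82 at 12 h. The 1 gene was Herpud1, which serves ER-associated degradation: it stood at 9.27 in both vehicle arrays, at 9.25 with NaF at 3 h, 10.23 at 6 h and 12.01 at 12 h. Creld2 went from -0.24 to 0.22 and then 2.72, Dnajb9 from -0.11 to 0.31 and then 2.15, and Sdf2l1 from 0.05 to 0.42 and then 2.09. Of the 9 ER stress genes that the study followed, 7 were included, and all 7 had a positive shift with a median of 0.88; since they were picked on these arrays, that is no independent evidence of direction. Casp12 was the smallest of them with 0.17.

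Promoters were read for the genes that started, grew or recovered and for those with a 2-fold shift. The genes that grew upward are described first, and they share a course because they were sorted by it. RefSeq promoters of build GRCr8, 250 bases before to 50 after the start, were held for 61 of the 66 genes. The 8-base cAMP response element TGACGTCA, which reads the same on both strands and is bound by CREB and ATF proteins, was found in 9 of the 61, or 14.8%. It was found in 3.65% of the promoters of all genes examined and in 1.91% of all 27457 promoters. In other courses it was found in 1 of 49 genes that started upward and 2 of 68 that started downward. It was also found in 2 of 62 that grew downward and 1 of 7 that recovered. The ER stress element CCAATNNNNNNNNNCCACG, searched on both strands, was found in 1 of the 61, Zfand2a. It was found in 0.23% of the promoters of all genes examined and in 0.0765% of all promoters. The motifs TGACGTGG, TGATGCAA and TGATGAAA were found in 0, 1 and 0 of the 61. Among all genes examined they were found in 0.921%, 0.583% and 0.507%. At such shares, counts among 61 promoters are too low to compare. The matches of the 9 genes are shown with up to 20 bases on each side and the element in capitals, since this element was the most frequent in this class of the 7 motifs searched. A match is a description of the letters and not a binding site.

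Il6 (chr4:5894710-5894757, minus strand): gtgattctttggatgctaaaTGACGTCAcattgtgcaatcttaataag
Areg (chr14:17265705-17265752, minus strand): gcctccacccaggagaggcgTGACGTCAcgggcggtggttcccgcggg
Ppp1r15a (chr1:105139635-105139682, minus strand): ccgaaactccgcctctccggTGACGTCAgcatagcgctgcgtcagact
Maff (chr7:112792716-112792763, plus strand): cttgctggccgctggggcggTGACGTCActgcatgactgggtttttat
Rcan1 (chr11:45118416-45118463, minus strand): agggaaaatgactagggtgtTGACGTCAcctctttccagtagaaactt
Epha2 (chr5:158888557-158888604, plus strand): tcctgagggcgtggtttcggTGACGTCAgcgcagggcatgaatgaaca
Ch25h (chr1:241429416-241429463, minus strand): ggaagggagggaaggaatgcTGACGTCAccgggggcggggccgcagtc
LOC102547700 (chr14:85622786-85622820, minus strand): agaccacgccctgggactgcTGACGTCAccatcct
Pex11g (chr12:6310337-6310378, minus strand): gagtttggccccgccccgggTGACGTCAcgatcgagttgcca

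These 9 genes were picked for the element after their values were seen. Rcan1, an inhibitor of the phosphatase calcineurin, had the largest change at 6 h among those not yet described: it was at 8.26 and 8.21 in vehicle and at 9.47 and 10.74 with NaF, and its change at 12 h was 3.53. Epha2, an ephrin receptor, was at 10.04 and 9.56 in vehicle and at 10.63 and 11.35 with NaF. Maff, a small Maf factor, was at 7.82 and 7.43 in vehicle and at 8.46 and 9.08 with NaF. Areg, a ligand of the EGF receptor, was at 9.90 and 9.59 in vehicle and at 10.94 and 11.65 with NaF. Ch25h, a cholesterol hydroxylase, differed from the others in being near vehicle again at 12 h, with a change of 0.05 after 1.26 at 6 h.

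**Figure D2:**
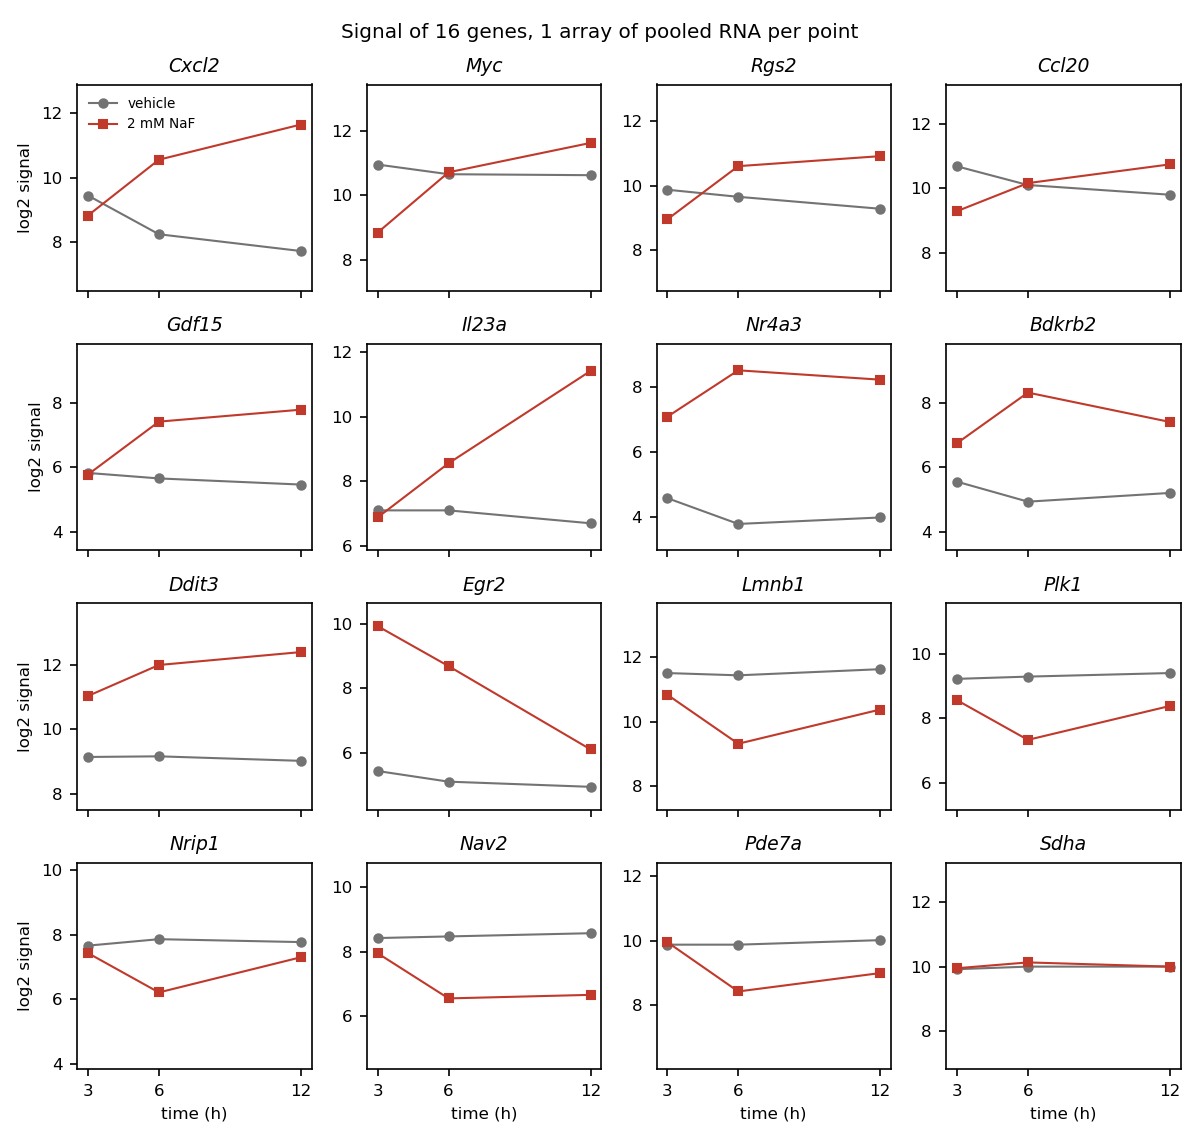
Log2 signal (y axis, each panel spanning the same number of log2 units) of 16 genes at 3, 6 and 12 h (x axis) with vehicle in grey circles and 2 mM NaF in red squares, each point being 1 array of pooled RNA without error. Cxcl2, Myc, Rgs2 and Ccl20 lie below vehicle of the same time with NaF at 3 h and at or above it at 6 h. Lmnb1, Plk1 and Nrip1 are lowest at 6 h, and Sdha, a reference gene, stays on the vehicle line.

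Genes that had been below vehicle at 3 h and were back by 6 h formed a small course of their own. Myc, a growth-promoting transcription factor, was at 10.95 in vehicle 3 h, 10.65 in vehicle 6 h, 8.84 with NaF at 3 h and 10.71 at 6 h. Its array at 3 h lay far below all vehicle arrays and the one at 6 h among them, a shift of 2.16 (SE 0.18; p of the NaF arrays alone 0.02, limma, adjusted), and at 12 h the change was 1.01. Ccl20, a chemokine, was at 10.68 and 10.10 in vehicle and at 9.29 and 10.16 with NaF, a shift of 1.46 (SE 0.52). Hps6, a gene of lysosome-related organelles, was at 7.45 and 7.12 in vehicle and at 5.87 and 6.80 with NaF. Sgk1, a kinase induced by stress and steroids, went from a change of -1.14 to -0.25 and then 0.92, and Tgif1, a repressor in TGF-beta signalling, from -1.07 to -0.08 and 0.16.

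The median change of the 10 recovered genes was -1.12 at 3 h, -0.346 at 6 h and 0.531 at 12 h. Their median gene length was 5.51 kb, against 23.0 kb for all genes. With the mean of the 4 vehicle arrays as baseline the class held 5 genes rather than 10, and 3 when the vehicle 3 h array was left out of that mean. Among the 11 genes that eased from below, Igsf9, an immunoglobulin superfamily gene, went from -2.60 to -1.29, Hyal2, a hyaluronidase, from -1.94 to -1.16, Micall2 from -1.41 to -0.60, Ccl2, a chemokine, from -1.24 to -0.51 and Mblac1 from -1.40 to -0.70. At 12 h, 6 of the 11 were near vehicle.

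In 5 genes the change passed from 0.5 or more below vehicle of the same time at 3 h to 0.5 or more above it at 6 h. Cxcl2, a neutrophil chemokine, had the largest shift of all genes: it was at 9.45 and 8.25 in vehicle and at 8.83 and 10.56 with NaF, a shift of 2.93 (SE 0.99), to which the vehicle signal contributed with a difference of -1.2. Rgs2, which shortens G protein signalling, was at 9.87 and 9.65 in vehicle and at 8.95 and 10.60 with NaF. Its shift of 1.87 (SE 0.41) came mainly from the NaF arrays, whose adjusted p alone was 0.035 in limma. Csf3, the gene of the growth factor G-CSF, went from -0.86 to 0.76, Dusp6, a phosphatase of ERK, from -0.72 to 0.91, and Tiparp, an ADP-ribosyltransferase, from -0.70 to 0.64. All 5 were further above vehicle at 12 h, Cxcl2 by 3.92. With NaF at 3 h, Cxcl2 and Csf3 lay within the 4 vehicle arrays, so their place below vehicle rested on the vehicle 3 h array. The vehicle control, 3, 6 and 12 h arrays stood at 9.19, 9.45, 8.25 and 7.73 for Cxcl2. For Csf3 they stood at 10.72, 11.07, 10.41 and 10.12, beside 10.20 with NaF at 3 h. Dusp6 at 9.73 was just below its lowest vehicle array at 9.78, and Rgs2 was below its lowest at 9.28. Rgs2 and Tiparp were named after their values were seen.

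The promoter of Cxcl2 held a match to the NF-kB consensus close to the start, shown for that reason with the match in capitals. This motif was added after the data were seen, on both strands.

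Cxcl2 (chr14:17467299-17467348, minus strand): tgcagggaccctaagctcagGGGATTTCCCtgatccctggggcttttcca

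The consensus was found in 11.3% of the 53 genes with a positive 2-fold shift and a promoter, in 4.74% of all genes examined and in 4.16% of all promoters; TGACGTCA was also found in 11.3% of those 53. The serum response element consensus, added likewise, was in 1.89% of them and in 1.64% of all promoters.

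Cytokine and chemokine genes had the largest median shift of the 26 lists with 5 or more members, when each time was set against its own vehicle array. Of 18 included, 10 had a positive 2-fold shift and 17 a positive one, against 0.871% and 56.5% of all genes, with a median of 1.3 beside 0.034 for all genes. Against the mean of the 4 vehicle arrays their median was 0.639, below the 0.672 of the study's ER stress genes. In 13 of the 18 the change at 3 h was below vehicle. Their vehicle signal was lower at 6 h in 13 of 18, with a median vehicle change of -0.38, and the median difference of the NaF arrays alone was 0.64, so both arms contributed. limma called 3 of the 18 on the NaF arrays alone, Il6, Il23a and Tslp, beside 2.42% of all genes in that direction. Il6 and Tslp reached the signal limit on the NaF 6 h array only, so that they were included because they were high there. Their shifts, 1.68 and 1.70, are among the 10 and the 17 and enter the median. Neither their shifts nor their calls count for the list. Cxcl6 was the 1 member with a negative shift, -0.61.

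Growth factor and MAP kinase feedback genes also had median shifts above that of all genes. All 7 feedback regulators of MAP kinases had a positive shift, with a median of 0.78, and 2 were 2-fold, against 56.5% and 0.871% of all genes. The median was 0.385 against the mean of the 4 vehicle arrays. Dusp5, a nuclear ERK phosphatase, was at 9.31 and 8.80 in vehicle and at 10.03 and 10.96 with NaF. Errfi1, an inhibitor of the EGF receptor, went from a change of 1.47 to 2.24 and Spry2, a feedback inhibitor, from -0.92 to -0.08. Of 7 EGF family genes, the ligands Ereg, Hbegf and Areg had 2-fold positive shifts while those of the ligand genes Tgfa (0.15) and Nrg1 (0.34, with 0.54 to 1.34 at its other probe sets) were smaller, and the receptors Egfr (-0.72) and Erbb2 (-0.83) had negative ones. limma called Ereg higher and both receptors lower on the NaF arrays alone, with adjusted p of 0.02, 0.049 and 0.043. The vehicle signal of the feedback regulators had a median difference of -0.46, larger in size than the 0.38 of their NaF signal, so both arms contributed.

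Immediate early genes separated within the interval. The only genes that eased from above were Egr4, Egr2, Fosb and Fos, all of this class. Egr2, a zinc finger factor, was at 5.43 and 5.1 in vehicle and at 9.92 and 8.68 with NaF, and at 6.10 at 12 h. Egr4 was at 5.72 and 5.62 in vehicle and at 8.96 and 7.51 with NaF, a shift of -1.35 (SE 0.50), and at 12 h its change was 0.00. Fos and Fosb, subunits of AP-1, went from changes of 3.74 and 3.77 to 3.04 and 2.96. All 4 were still at least 1.88 above vehicle at 6 h.

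Other members held or grew. Atf3, a stress factor of the ATF family, was at 8.04 and 7.46 in vehicle and at 11.23 and 10.96 with NaF, so its change of 3.19 at 3 h and 3.50 at 6 h held while its NaF signal was slightly lower at 6 h. Egr1 (2.01 and 1.74) also held. So did genes of other lists, Dusp1 (2.76 and 3.19), a MAP kinase phosphatase, and Zfp36 (1.93 and 2.04), which destabilizes cytokine transcripts. Csrnp1 went from 2.25 to 3.69 and Fosl1, another AP-1 subunit, from 0.75 to 1.76. Between the times their NaF signals differed by 0.96 and 0.61 and their vehicle signals by -0.48 and -0.39. Over the 25 immediate early genes 5 had a positive 2-fold shift and 1 a negative one, against 0.871% and 0.559% of all genes, and the median change was 0.53 at 3 h, 1.4 at 6 h and 0.62 at 12 h.

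**Figure D3:**
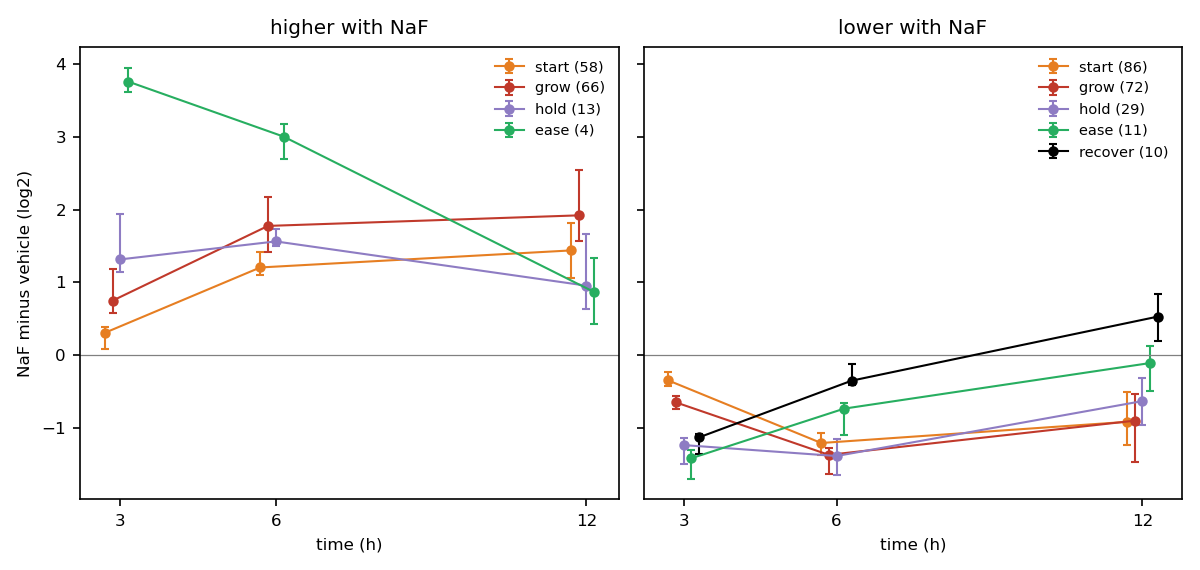
Median change (NaF minus vehicle, log2, y axis) at 3, 6 and 12 h (x axis) of the genes in each course, upward in the left panel and downward in the right, with bars for the interquartile range over genes and the number of genes in the key. Genes that started or grew upward stay up at 12 h with medians of 1.44 and 1.92, while those that started or grew downward are closer to vehicle at 12 h than at 6 h, with medians of -0.912 and -0.896.

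Genes that started downward were led by Pde7a, Nav2, Nrip1, Ppfibp2 and Tasor. Pde7a, a cAMP phosphodiesterase, was at 9.88 in both vehicle arrays, at 9.96 with NaF at 3 h and at 8.43 at 6 h, a shift of -1.53 (SE 0.17; p of the NaF arrays alone 0.017, limma, adjusted). Nav2, a neuron navigator gene, was at 8.42 and 8.47 in vehicle and at 7.95 and 6.55 with NaF, a shift of -1.46 that its other probe set at the signal limit did not show (-0.02). Nrip1, a nuclear receptor corepressor, was at 7.66 and 7.86 in vehicle and at 7.43 and 6.21 with NaF. In each the NaF array at 6 h lay below every vehicle array. Over the 86 genes the median change went from -0.344 to -1.2 and, at 12 h, to -0.912. Of these, 35 were 2-fold or more below vehicle at 12 h, where 5.29% of all genes were.

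Growth downward was led by Asb12, B3galnt1, Lmnb1, Maf and Plk1. Asb12, a gene of the ankyrin and SOCS box family, was at 7.03 and 6.90 in vehicle and at 6.38 and 4.68 with NaF, the largest negative shift at -1.57 (SE 0.26). B3galnt1, a glycosyltransferase, was at 10.03 and 10.12 in vehicle and at 9.06 and 7.64 with NaF. Lmnb1, which encodes lamin B1 of the nuclear envelope, was at 11.51 and 11.44 in vehicle and at 10.84 and 9.32 with NaF, a shift of -1.45 (SE 0.17), and was at 10.38 at 12 h.

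A lowest point at 6 h was far more frequent than an upward peak, with 71 genes against 13. Of the 71, 36 were near vehicle at 12 h. Tfap4, a helix-loop-helix factor, had changes of -1.0, -1.97 and 0.18, Nrip1 of -0.23, -1.65 and -0.48 and Tasor, a gene of heterochromatin silencing, of -0.33, -1.71 and -0.42. Nup153, a nuclear pore protein, had changes of -0.45, -1.03 and 0.00. The 31 genes of nuclear pore, importins and lamina had a median shift of -0.15, with Lmnb1 the 1 member at 2-fold and Tmpo next at -0.92. A lowest point does not separate lower transcription from faster loss of RNA, and a difference in cell number or in RNA per cell cannot be told apart either. Each lowest point or peak also rests on 1 NaF and 1 vehicle array at 6 h, so a deviation of either array cannot be told apart from it.

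Mitosis and spindle genes had the lowest median shift of the lists. All 27 included had a negative shift, with a median of -0.56, and 14 had a shift of -0.5 or lower, beside 4.55% of all genes. Plk1, a mitotic kinase, was at 9.22 and 9.29 in vehicle and at 8.56 and 7.33 with NaF, a shift of -1.30 (SE 0.26; p of the NaF arrays alone 0.025, limma, adjusted). Espl1 (separase) had a shift of -1.24, Cenpf, a kinetochore protein, of -1.13 and Ccnb1 (cyclin B1) of -1.05. limma called 5 of the 27 lower on the NaF arrays alone, beside 4.04% of all genes. In vehicle the median change of the list was 0.088, so the NaF arm made up most of it.

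The list did not share one course after 6 h. Plk1 was at a change of -1.01 at 12 h and Ccnb1 at -0.87, both closer to vehicle than at 6 h, whereas in 18 of 27 members the change at 12 h was lower than at 6 h. Aspm, a spindle pole gene, went from -0.20 to -1.13 and -1.50. The 26 DNA replication genes had a smaller median shift of -0.16, with 1 at -0.5 or lower, Tyms (-0.55), which makes thymidylate.

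**Figure D4:**
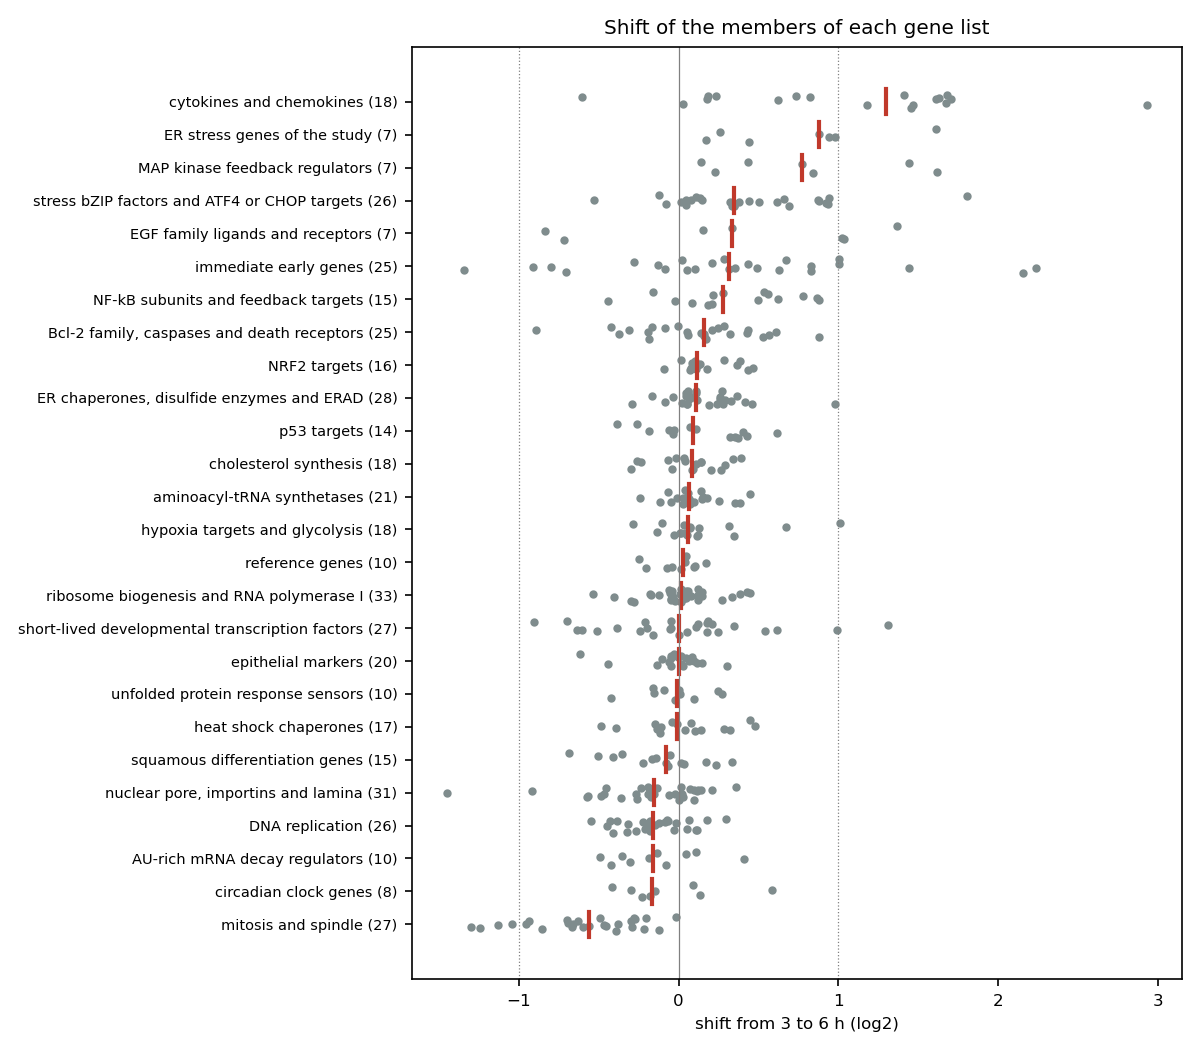
Shift from 3 to 6 h (x axis, log2) of the members of 26 gene lists with 5 or more included genes (y axis, number of genes in parentheses), 1 grey point per gene and a red bar at the median, with dotted lines at a 2-fold shift and points spread vertically only for display. Cytokines and chemokines lie farthest to the right with a median of 1.3 and mitosis and spindle genes farthest to the left with -0.56, while reference genes lie at 0.028.

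Other lists had medians nearer to the median of all genes, though in some the signs were uneven. The median shift was 0.068 for 21 aminoacyl-tRNA synthetases, whose median change then reached 0.49 at 12 h, and 0.017 for 33 genes of ribosome biogenesis and RNA polymerase I, whose median change was 0.68 at 12 h. It was -0.011 for 10 sensors of the unfolded protein response, -0.012 for 17 heat shock chaperones, 0.11 for 16 NRF2 targets, 0.061 for 18 hypoxia and glycolysis genes, 0.085 for 18 cholesterol synthesis genes, 0.088 for 14 p53 targets, 0.0049 for 27 short-lived developmental transcription factors and -0.17 for 8 clock genes. Single members stood out: Vegfa, an angiogenic factor, went from a change of 0.95 to 1.96 and Id4, a helix-loop-helix inhibitor, from -0.32 to -1.23. The 25 genes of the Bcl-2 family, caspases and death receptors had a median of 0.16, led by Casp2 (-0.90), an initiator caspase, and Birc3 (0.88), which restrains caspase activation. The 10 regulators of AU-rich transcript decay had a median of -0.16. Of these 10, 3 had a positive shift, as did 15 of the 16 NRF2 targets and 14 of the 18 hypoxia and glycolysis genes, against 56.5% of all genes. No AU-rich regulator and no NRF2 target had a shift of 0.5 or more in size.

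NF-kB subunits and feedback targets lay above the median of all genes. Of 15 included, 12 had a positive shift and 6 a shift of 0.5 or more, against 56.5% and 5.31% of all genes, with a median of 0.28. Nfkbia, the inhibitor of NF-kB, went from a change of -0.69 to 0.09.

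The 20 epithelial markers included had a median vehicle signal of 12.07 and a median shift of 0.0039, and the 15 squamous differentiation genes a median shift of -0.08, with Cnfn at -0.69. Of the markers of other cell types on the array, 3 of 14 mesenchymal (Fn1, S100a4 and Vim) and 1 of 18 skeletal muscle genes (Myh1) reached the signal limit. So did 1 of 13 leukocyte (Cd14) and 1 of 10 endothelial genes (Egfl7). The 3 mesenchymal genes had a median vehicle signal of 12.56. The 10 reference genes had a median shift of 0.028, between -0.247 and 0.17. Gapdh was left out, since its own probe set carries several symbols.

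Gene length in the genome differed between the directions of the shift. The median length in the RefSeq annotation of GRCr8 was 77.7 kb for the genes with a negative 2-fold shift and 11.4 kb for those with a positive one, beside 23.0 kb for all. A negative 2-fold shift was seen in 0.316% of 1901 genes under 10 kb, 0.228% of 2630 genes of 10 to 30 kb, 0.665% of 2254 genes of 30 to 100 kb and 1.7% of 881 genes of 100 kb or more. Positive 2-fold shifts were seen in 1.58%, 0.76%, 0.444% and 0.681% of the same classes, most often in the shortest genes. The median shift of the 4 length classes was 0.092, 0.046, -0.0065 and -0.037. Among the longest were Nav2 with 659 kb, whose other probe set had a shift of -0.02, and Maf with 363 kb, while Itsn1, with 182 kb, had a positive shift of 1.81 in its named probe set only. Median signal was close between the classes, from 9.08 in the shortest to 8.55 in the longest.

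**Figure D5:**
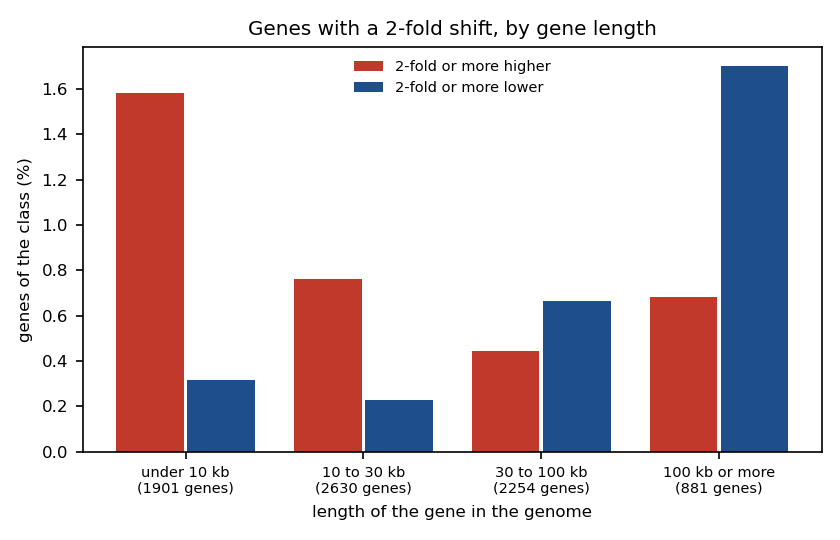
Share of genes (y axis, percent) with a 2-fold positive (red) or negative (blue) shift in 4 classes of gene length (x axis), the number of genes under each; the bars are counts without replicate error. The blue bar is tallest at 1.7% for genes of 100 kb or more and the red bar at 1.58% for genes under 10 kb.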

How the data were processed

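Gene expression in ROE2 cells was measured on 7 arrays, 1 for each condition, each with pooled RNA of 3 experiments. After labelling, hybridization and scanning, the authors used GeneSpring GX, with a normalization not given in the sources used here. Values deposited by the authors are log2 signals per probe set, already scaled between arrays (array medians of 5.32 to 5.35), and were used as deposited. Arrays give no read depth, and their number limits the precision.

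Names came from the platform annotation: 20826 probe sets had 1 symbol, 436 several, 9780 none and 57 were controls. Of all probe sets, 11457 reached log2 7 on any of the 4 arrays. These were fitted with limma 3.58.1 in R 4.3.3 (lmFit, eBayes), with a term for the vehicle mean, a term for the vehicle change and a term per NaF array, and Benjamini-Hochberg adjustment over all of them at 0.05; the script was tested on simulated data. Genes entered with their brightest probe set. In 253 named probe sets the vehicle 3 h and 6 h values were identical. Courses, lists and promoters have no test.

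Genes were named by rule: the 10 largest passing shifts each way (none passed), up to 5 per course and peak, up to 6 per list, and a few stress genes; others are stated. The members and gene lists were chosen with earlier results of these data known. Alternatives changed the scaling, filter, thresholds, baseline, variance model and vehicle arrays.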

Additional observations from a re-analysis of the deposited data

Results flagged for a closer look

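The change from vehicle had opposite signs at 3 and 6 h, 0.5 or more in size at both, in 5 genes: the shifts were 2.93 for Cxcl2, 1.87 for Rgs2, 1.63 for Csf3, 1.62 for Dusp6 and 1.34 for Tiparp. With 1 array per condition, the difference between the times was not tested beyond the limma fit that called none of these 5 genes. With NaF at 3 h, Cxcl2 and Csf3 lay within the range of the 4 vehicle arrays. No condition has 4 or more arrays, so no array could be examined as an outlier of its group.

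Control probe sets outside the comparisons also shifted. The 5S rRNA control had a log2 signal of 5.67 with NaF at 3 h, 6.65 with NaF at 6 h, 5.46 in vehicle 3 h and 5.09 in vehicle 6 h, a shift of 1.35. The 18 probe sets of the hybridization spike-ins, bacterial and phage RNA added in equal amounts, had a median shift of 0.739, from 0.249 to 0.953, with the NaF 6 h array at 10.14 and the others between 9.47 and 9.67. Their part in the shifts of genes was not tested.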

How the results depend on the processing

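No paired analysis was possible because the labels carry no replicate numbers and each condition has 1 array. The depth of arrays is their number: a lone NaF array per time allows no spread of its own.

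The count of 0 positive and 0 negative shifts called by limma became 229 and 370 when the vehicle change was not subtracted. It became 1 and 0 with a variance trend, and 2 and 3 with an ordinary t-test on the same fit after Benjamini-Hochberg adjustment. It ranged from 0 to 202 positive and from 0 to 284 negative when a vehicle array was left out. The vehicle change cannot be subtracted without vehicle 3 h or without vehicle 6 h: the first gave the highest counts and the second 0 of both. In the fit of the NaF arrays alone, leaving out each vehicle array, added after the data were seen, gave 0 to 202 higher and 0 to 284 lower in place of 229 and 370, with 0 without vehicle 6 h or 12 h. Every other setting of the shift gave 0. Array medians set equal or quantile normalization kept every count of 2-fold shifts and courses within 1.5 times.

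Probe sets with a 2-fold positive shift, 85, were 140 without a filter, 47 with the mean of the 4 vehicle arrays as baseline (where leaving a vehicle array out has no effect), 38 at 2.5-fold and 360 at 1.5-fold; the negative 55 were 13 at 2.5-fold and 313 at 1.5-fold.

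With the filter at log2 6, 18 genes recovered from below, and at log2 8, 6 did and 43 had a lowest point at 6 h. Without a filter, 92 genes started upward, 1 recovered from above, 21 recovered from below and 21 peaked upward. With the mean vehicle baseline, 38 started upward, 1 recovered from above, 5 recovered from below and 5 eased from below. Leaving each vehicle array out of that mean gave 36 to 42 starting upward, 0 to 1 recovered from above, 3 to 6 recovered from below and 4 to 6 eased from below. With changed set at 2.5-fold, 19 started upward, 30 downward, 45 grew downward, 5 held upward, 11 held downward, 3 recovered, 7 peaked upward and 37 were lowest at 6 h. With near vehicle under 0.25, 22 started upward, 24 downward, 101 grew upward, 134 downward and 3 recovered.

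With the mean vehicle baseline, median shifts moved by more than the spread of vehicle arrays to 0.639 for cytokines, 0.254 for ATF4 or CHOP targets, 0.237 for ER chaperones, 0.036 for heat shock, 0.041 for squamous genes, -0.231 for AU-rich decay, -0.101 for the nuclear pore list and 0.672 for the study's ER stress genes; with the mean of probe sets, the EGF family moved to 0.812. Without the vehicle change subtracted, the difference changed sign for Atf3 (-0.27), Cldn4 (-0.04), Dusp1 (-0.07), Krt13 (0.14) and Slc25a25 (-0.17); with a vehicle array left out the ranges were -0.27 to 0.31, -0.04 to 0.30, -0.07 to 0.44, -0.36 to 0.14 and -0.17 to 0.40 in that order, the changed signs being those without the vehicle 3 h or 6 h array. The causes were not tested.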

Other observations

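Histone genes were matched by symbol after the values were seen, and as a multigene family they may share probes. Of 7 core or linker histone genes included, 5 (Hist4h4, H4f3, H3c1, H4cl1 and Hist3h2ba) reached the signal limit on the NaF 6 h array only and were thus included because they were high there, so the values are a description. Hist4h4 was at 5.95 and 5.57 in vehicle and at 6.96 and 8.35 with NaF, a shift of 1.77, H4f3 had a shift of 1.38 and H3c1 of 1.04. H2ac25 (0.88), H4cl1 (0.55), Hist3h2ba (0.43) and H1f2 (0.38) had smaller positive shifts. The 3 variant histone genes had shifts of 0.29 (H2aj), 0.18 (H2ax) and -0.24 (H2az1).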
